A study of Rattus norvegicus with 36 samples.

Results

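The genes described here act in the G2 and M phases of the cell cycle. They were chosen as 41 gene symbols, which fall into 9 roles from the cyclins that start mitosis to the enzymes that end it. At the gene level, 31 of the 41 had a transcript cluster annotated to that symbol alone, out of 13215 genes with a symbol and 18901 clusters in all. None of the 31 was dim, taken as a mean under the 25th percentile of all clusters (log2 level 3.45). Nek2 had only a cluster that carries several symbols, and Ccnb2, Birc5, Cenpa, Ndc80, Kif11, Nusap1, Dlgap5, Kif23 and Anln were not analysed here at the gene level. Each gene was read array by array in all 6 groups of the study.

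The RNA came from CG-4 cells, a rat line of oligodendrocyte progenitor cells, grown with 30% conditioned medium of B104 neuroblastoma cells and measured on exon arrays. The groups were untreated cells, cells transfected with a non-silencing small interfering RNA (siRNA), with a siRNA against QKI or with a siRNA against hnRNP A1, a stable line with a non-silencing short hairpin RNA (shRNA) and a stable line with a shRNA against QKI. QKI and hnRNP A1 are RNA-binding proteins. Each group has 3 arrays, which the labels call biological replicates, and Lipofectamine 2000 was the transfection agent. Each shRNA is represented by 1 line, while the sources used here do not state whether a line is 1 clone, which promoter drives the shRNA, when cells were taken or how dense they were. The arrays measure RNA of whole cultures, so fewer cells in mitosis and less RNA per mitotic cell cannot be told apart.

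Messages of mitotic genes rise late in S phase, peak in G2 and M and drop when cells leave the cycle, and in oligodendrocyte progenitors they mark dividing cells as against cells that differentiate. The DREAM complex holds many of these genes down in resting cells, and the B-MYB and MuvB proteins together with FOXM1 switch them on later in the cycle. A pair of promoter elements is known for this group in mammals, CCAAT boxes bound by NF-Y and the cell cycle genes homology region (CHR), a short element bound by the MuvB core.

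The promoter sequences below are shown because these elements are what many genes of the group share in other mammals. The 4 genes were taken from members with both elements before the gene start, so they do not stand for all members. They are Cdk1, the kinase that drives entry into mitosis, Cdc20, the activator of the anaphase-promoting complex, Top2a, the topoisomerase that disentangles sister chromatids, and Mki67, which encodes the proliferation marker Ki-67. Each is the 250 bases before the RefSeq gene start in assembly GRCr8, 5′ to 3′ on the gene's strand. Capitals mark every CCAAT and every TTTGAA, the canonical CHR, read on either strand, so that ATTGG and TTCAAA are the same elements in reverse. Cdk1 lies at chr20:19265043-19265292 on the plus strand, Cdc20 at chr5:137255800-137256049, Top2a at chr10:84473094-84473343 and Mki67 at chr1:199952594-199952843 on the minus strand.
Cdk1: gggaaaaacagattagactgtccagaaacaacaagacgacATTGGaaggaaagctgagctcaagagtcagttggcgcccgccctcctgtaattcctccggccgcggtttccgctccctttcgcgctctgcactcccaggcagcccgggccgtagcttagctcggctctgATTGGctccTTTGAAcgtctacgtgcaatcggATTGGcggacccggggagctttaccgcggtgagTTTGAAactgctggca
Cdc20: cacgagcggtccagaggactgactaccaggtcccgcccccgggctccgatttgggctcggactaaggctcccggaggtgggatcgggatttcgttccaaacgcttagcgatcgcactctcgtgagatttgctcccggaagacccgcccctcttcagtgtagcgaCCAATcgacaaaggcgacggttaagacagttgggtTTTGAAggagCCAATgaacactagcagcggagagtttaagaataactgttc
Top2a: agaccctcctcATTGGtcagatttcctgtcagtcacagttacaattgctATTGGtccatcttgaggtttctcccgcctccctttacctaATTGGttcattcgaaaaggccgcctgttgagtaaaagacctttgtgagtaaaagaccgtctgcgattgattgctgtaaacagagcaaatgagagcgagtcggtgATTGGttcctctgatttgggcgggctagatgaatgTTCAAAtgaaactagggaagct
Mki67: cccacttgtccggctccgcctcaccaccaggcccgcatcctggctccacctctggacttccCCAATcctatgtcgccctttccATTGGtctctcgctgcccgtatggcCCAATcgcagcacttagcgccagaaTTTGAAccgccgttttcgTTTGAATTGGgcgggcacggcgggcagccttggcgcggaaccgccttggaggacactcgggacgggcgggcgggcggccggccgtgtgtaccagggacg

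Cdk1 holds 3 CCAAT and 2 TTTGAA matches in this stretch, Cdc20 holds 2 and 1, Top2a 4 and 1, and Mki67 4 and 2. In Mki67 a TTTGAA and a reversed CCAAT share letters, and Cdca8 holds 1 such overlap as well. Of the 41 members, 34 had a RefSeq start window, which runs from 250 bases before to 50 bases after the start. CCAAT stood in 26 of these 34 windows (76.5%), against 37.7% of all 27457 windows with their own symbol. TTTGAA stood in 22 windows (64.7%), against 18.1% of all windows, and 18 (52.9%) held both, against 7.3% of all. Aurka, Bub1, Kif2c and Melk held neither. Among 25 measured S phase genes with a window, 15 held CCAAT and 2 held TTTGAA, so that the share with TTTGAA was 8.0%. A match of letters is a description of the sequence and does not show a factor at the site.

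**Figure D1:**
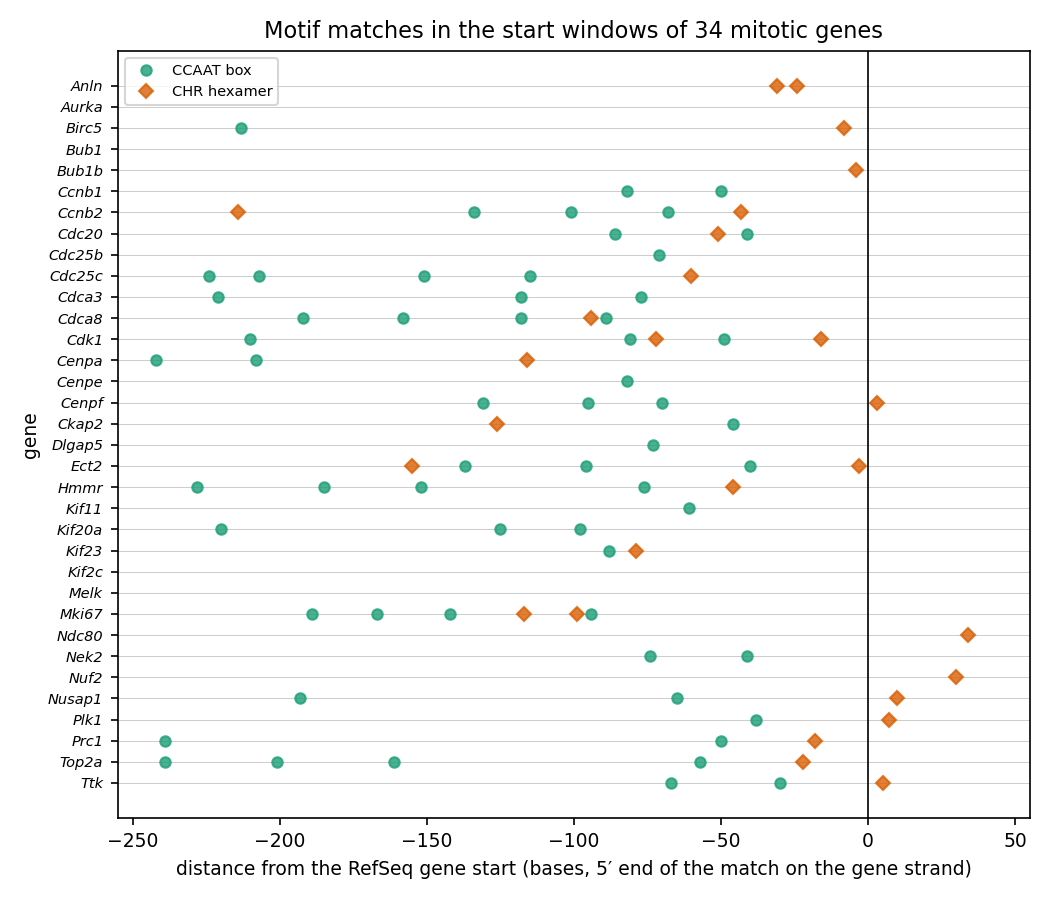
Positions of CCAAT boxes (circles) and of the canonical CHR (diamonds) in the RefSeq start windows of 34 mitotic genes, against the distance from the gene start in bases. CCAAT matches occur in 26 windows and CHR matches in 22, and most of both lie before the start.

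Most progenitor markers were present, and so were several markers of mature oligodendrocytes. Of 6 progenitor markers, Ptprz1, Sox10, Olig1, Nkx2-2 and Gpr17 had mean log2 levels of 11.05, 9.68, 9.38, 8.79 and 7.76, all above the 75th percentile of cluster means (5.82), while Cspg4 stood at 3.67, below the median of all clusters (3.98). Of 8 oligodendrocyte markers, Cnp, Mbp, Ugt8 and Mag had means of 10.12, 7.83, 7.68 and 6.11, also above that 75th percentile, while Mobp, Cldn11 and Opalin lay below the median. Microglial, fibroblast and neuronal lists of 7, 5 and 6 genes had array means of at most 3.73, 4.07 and 4.33. Within them, Syt1 (5.34) and Tubb3 (5.17) of the neuronal genes and Col1a2 (4.66) and Col3a1 (4.05) of the fibroblast genes had means above the median. Of 6 astrocyte genes, Gfap (3.66 to 7.81), S100b (4.16 to 8.47) and Slc1a3 (4.48 to 7.09) varied widely. The targeted genes were lower in the siRNA groups but not past the test against non-silencing siRNA. Qki differed by -1.44 ± 0.22 with QKI siRNA (log2 difference ± standard error, limma adjusted p = 0.179). In the line labelled QKI shRNA it differed from the non-silencing line by -0.25 ± 0.22 (adjusted p = 0.656). Arrays 1 and 2 of that line, at 10.65 and 10.35, lay below all 3 control arrays (10.90, 11.01 and 10.99). Its array 3, at 11.14, lay above them. Qki was thus not called lower there, nor against untreated cells (-0.73 ± 0.22, adjusted p = 0.133). Hnrnpa1 differed by -0.70 ± 0.19 with its siRNA (adjusted p = 0.393).

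Arrays of the same group differed in the mitotic genes, and in both knockdown siRNA groups array 3 was the lowest. The mean log2 level of the 31 members was 7.38, 6.93 and 5.71 on the 3 QKI siRNA arrays and 7.09, 6.44 and 5.75 on the hnRNP A1 siRNA arrays. It was 7.20, 7.07 and 8.0 in untreated cells, 5.55, 6.03 and 6.04 with non-silencing siRNA, 7.78, 6.81 and 6.83 in the non-silencing shRNA line and 7.80, 7.67 and 6.75 in the QKI shRNA line. Array 3 of either siRNA knockdown thus lay with the non-silencing siRNA arrays, and arrays 1 and 2 lay higher. Single arrays stood off in other groups too. Array 3 of the untreated cells and array 1 of the non-silencing line lay above the rest of their groups. Array 3 of the QKI shRNA line lay below the rest of its group. Qki itself read 9.99, 10.02 and 9.67 on the QKI siRNA arrays, and Hnrnpa1 read 7.90, 7.85 and 7.65 on the hnRNP A1 siRNA arrays, so the targeted message was lowest on array 3 both times. The mean of 28 S phase genes was likewise lowest on array 3, at 5.52 with QKI siRNA and 5.64 with hnRNP A1 siRNA. The mean of 8 oligodendrocyte markers was highest there, at 5.85 against 5.11 and 5.22 with QKI siRNA and at 6.45 against 5.58 and 5.79 with hnRNP A1 siRNA. Their part in the results below was not tested. Counts without these 2 arrays are given where they differ, but the arrays were picked by the members' own levels, so those counts are a description.

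The members moved over a wide range and largely together. From the lowest to the highest array a member spanned 1.35 to 3.84 log2 units, with a median of 2.74, while the median over all 18901 clusters was 0.89. Between pairs of the 31 members, Pearson's r over the 18 arrays had a median of 0.86 and ran from 0.05 to 0.99. With each group's mean removed the median was 0.89, so the members also moved together between arrays of 1 group. The groups accounted for a median of 54.5% of a member's variance over the arrays. Every member was lowest on an array of a siRNA group, 19 of them on array 1 of non-silencing siRNA. Array 3 of the untreated cells was the highest for 12 members, and array 1 of the 2 stable lines for 8 members each. All arrays share 1 normalization, and these values are descriptions.

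**Figure D2:**
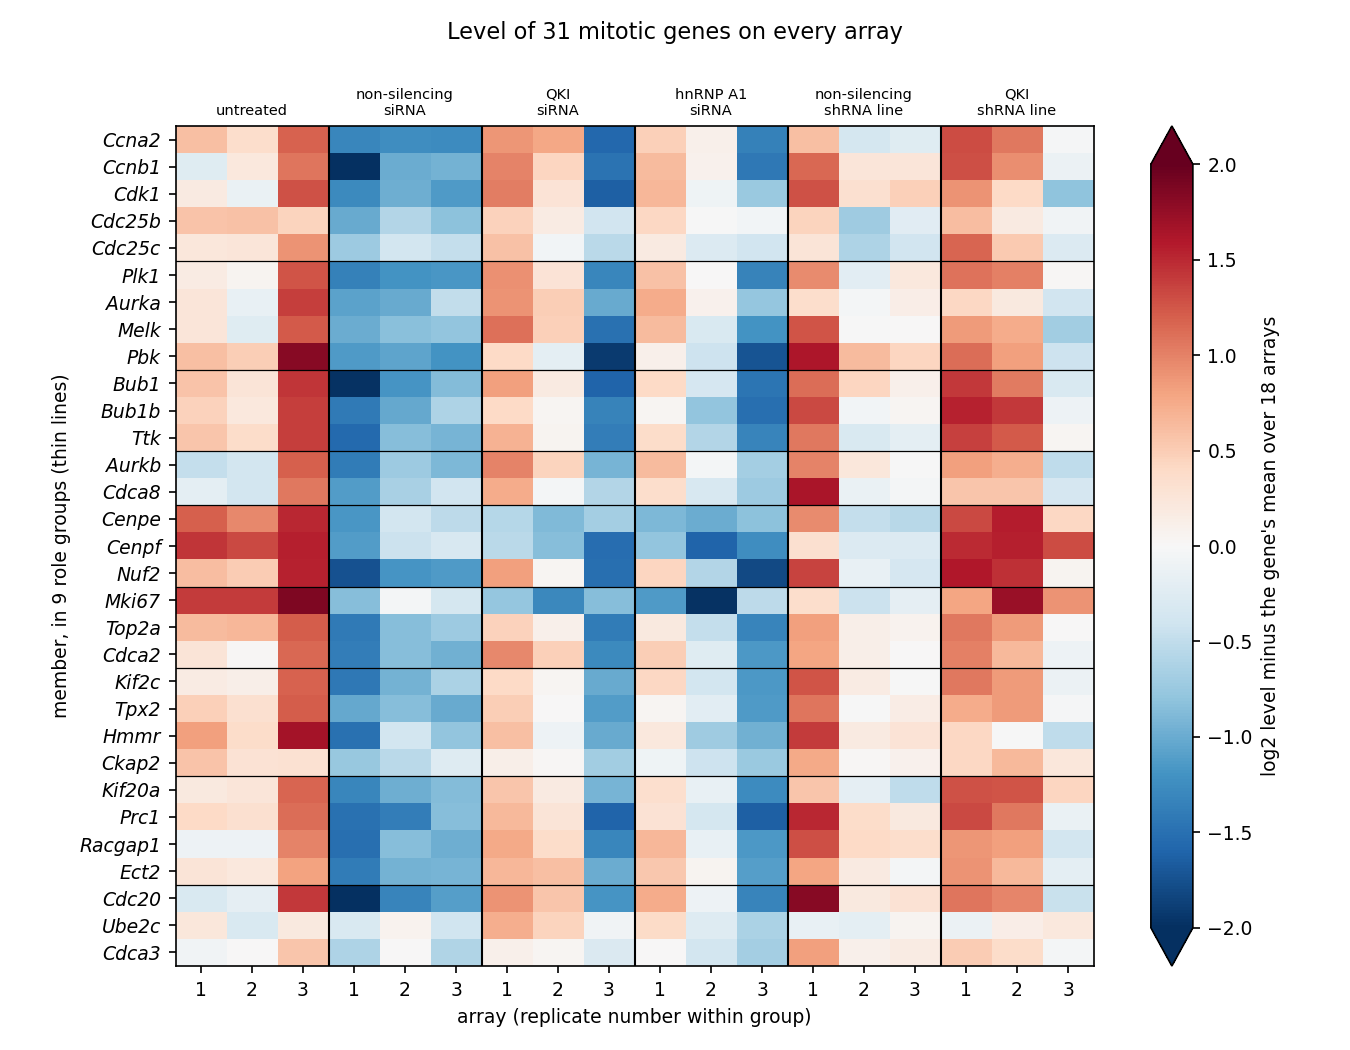
Log2 level of each of the 31 measured members on every array, minus that gene's mean over the 18 arrays (red above, blue below). Most rows follow one course, with low levels on the 3 non-silencing siRNA arrays and on array 3 of both siRNA knockdowns. On Mki67, Cenpf and Cenpe no knockdown siRNA array lies above the highest non-silencing siRNA array. All 9 siRNA arrays lie below every untreated array on these genes, and also on Pbk, Top2a and Ckap2.

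Among the cyclins and regulators of Cdk1, the B-type cyclin Ccnb1, the partner of Cdk1 at mitotic entry, had the highest probe signal, which is how 1 member of each role was picked and which does not rank the amounts of different messages. Its log2 level was 7.59, 8.05 and 8.90 in untreated cells, 5.75, 6.85 and 6.89 with non-silencing siRNA, 8.83, 8.27 and 6.36 with QKI siRNA and 8.47, 7.92 and 6.40 with hnRNP A1 siRNA. In the stable lines it read 8.99, 8.07 and 8.08 without a target and 9.13, 8.76 and 7.71 with QKI shRNA. All 3 non-silencing siRNA arrays lay below all untreated arrays, and the knockdown siRNA arrays spanned both. Ccna2 encodes cyclin A2 of S phase and G2, and the phosphatases Cdc25b and Cdc25c switch Cdk1 on. Against untreated cells the differences with non-silencing siRNA were -1.98 for Ccna2, -1.68 for Ccnb1, -1.57 for Cdk1, -1.33 for Cdc25b and -0.98 for Cdc25c, with no overlap of arrays for any of them and no adjusted p under 0.05 (the lowest was 0.0819, for Cdc25b).

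Of the mitotic kinases, Aurka encodes the centrosomal kinase Aurora A. It read 8.86, 8.47 and 10.01 in untreated cells, 7.55, 7.62 and 8.14 with non-silencing siRNA, 9.52, 9.11 and 7.62 with QKI siRNA, 9.37, 8.71 and 7.85 with hnRNP A1 siRNA, 8.98, 8.59 and 8.75 in the non-silencing line and 9.04, 8.82 and 8.24 in the QKI shRNA line. Array 3 of the untreated cells was its highest, and all non-silencing siRNA arrays lay below the untreated ones. Plk1, which acts at centrosomes, kinetochores and the midbody, and the kinases Melk and Pbk differed from untreated cells by -1.73, -1.28 and -2.10 with non-silencing siRNA. Nek2, a kinase of centrosome separation, had 2 probe sets at the exon level, with differences of -0.15 and 0.08.

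Bub1, Bub1b and Ttk are kinases of the checkpoint that delays anaphase until chromosomes are attached. Bub1 read 7.92, 7.61 and 8.77 in untreated cells and 5.37, 6.17 and 6.48 with non-silencing siRNA. With QKI siRNA it read 8.16, 7.52 and 5.75, with hnRNP A1 siRNA 7.74, 7.01 and 5.88, and in the stable lines 8.46, 7.77 and 7.44 without a target and 8.76, 8.38 and 7.04 with QKI shRNA. The chromosomal passenger complex corrects faulty attachments, and its kinase Aurkb read 6.06, 6.17 and 7.73 in untreated cells, 5.14, 5.80 and 5.64 with non-silencing siRNA, 7.52, 6.98 and 5.60 with QKI siRNA, 7.16, 6.49 and 5.85 with hnRNP A1 siRNA, 7.52, 6.76 and 6.53 in the non-silencing line and 7.35, 7.26 and 6.03 in the QKI shRNA line. Both genes were lower on every non-silencing siRNA array than on any untreated array, as was Cdca8, which encodes the subunit borealin. The survivin gene Birc5 belongs to this complex but had no value.

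Tpx2, which brings Aurora A to the spindle, is shown for the spindle genes. It read 8.38, 8.22 and 9.11 in untreated cells, 6.87, 7.05 and 6.89 with non-silencing siRNA, 8.39, 7.91 and 6.78 with QKI siRNA, 7.93, 7.69 and 6.76 with hnRNP A1 siRNA, 8.97, 7.89 and 8.05 in the non-silencing line and 8.64, 8.75 and 7.87 in the QKI shRNA line. The microtubule depolymerase Kif2c, the spindle protein Hmmr and Ckap2 differed from untreated cells by -1.49, -1.83 and -0.91 with non-silencing siRNA, again without overlap. Kif11, Nusap1 and Dlgap5, a motor and 2 proteins that stabilise spindle microtubules, were not analysed here.

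Racgap1 encodes a subunit of centralspindlin, which with its partner motor Kif23 organises the midzone before the cell divides. It read 8.74, 8.75 and 9.84 in untreated cells, 7.33, 8.0 and 7.87 with non-silencing siRNA, 9.60, 9.21 and 7.54 with QKI siRNA, 9.51, 8.69 and 7.69 with hnRNP A1 siRNA, 10.14, 9.24 and 9.19 in the non-silencing line and 9.72, 9.66 and 8.48 in the QKI shRNA line. Prc1, which bundles midzone microtubules, the motor Kif20a and Ect2, the RhoA activator of the cleavage furrow, differed from untreated cells by -1.86, -1.58 and -1.52 with non-silencing siRNA. Anln, a scaffold of the furrow, had 1 probe set, with a difference of 0.05.

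Cdc20 turns on the ubiquitin ligase that ends mitosis, and it had the second widest range of the members, 3.82. Its level was 7.65, 7.77 and 9.36 in untreated cells, 5.94, 6.62 and 6.85 with non-silencing siRNA, 8.85, 8.50 and 6.77 with QKI siRNA, 8.69, 7.85 and 6.62 with hnRNP A1 siRNA, 9.76, 8.15 and 8.24 in the non-silencing line and 9.01, 8.92 and 7.50 in the QKI shRNA line. Ube2c, the ubiquitin-conjugating enzyme of that ligase, and Cdca3, a trigger of mitotic entry, varied least in this role, with ranges of 1.35 and 1.52. They were the 2 members whose untreated and non-silencing siRNA arrays overlapped, at differences of -0.24 for Ube2c and -0.57 for Cdca3. Their clusters rest on 3 and 2 probe sets.

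Top2a had log2 levels of 10.18, 10.21 and 10.75 in untreated cells, 8.12, 8.69 and 8.81 with non-silencing siRNA, 10.01, 9.65 and 8.15 with QKI siRNA and 9.73, 9.07 and 8.22 with hnRNP A1 siRNA. In the non-silencing line it read 10.36, 9.66 and 9.61, and with QKI shRNA 10.59, 10.39 and 9.55. Top2a differed by -1.84 ± 0.45 between non-silencing siRNA and untreated cells (adjusted p = 0.130), and Cdca2, which recruits a phosphatase to chromatin at mitotic exit, by -1.54 ± 0.51 (adjusted p = 0.289).

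Mki67, Cenpf and Cenpe took a different course. Ki-67, the product of Mki67, coats mitotic chromosomes and keeps them apart, and Cenpf and Cenpe encode large kinetochore proteins, the second a motor. Mki67 (transcript cluster 7058242) read 8.85, 8.86 and 9.32 in untreated cells, 6.60, 7.42 and 7.10 with non-silencing siRNA, 6.69, 6.16 and 6.60 with QKI siRNA, 6.32, 5.48 and 6.94 with hnRNP A1 siRNA, 7.81, 7.02 and 7.27 in the non-silencing line and 8.25, 9.18 and 8.35 in the QKI shRNA line. All 9 siRNA arrays and all 3 of the non-silencing line lay below the untreated and the QKI shRNA arrays.
Cenpf (cluster 7115362) read 8.56, 8.45 and 8.68 in untreated cells, 6.01, 6.71 and 6.82 with non-silencing siRNA, 6.59, 6.28 and 5.61 with QKI siRNA, 6.35, 5.53 and 5.89 with hnRNP A1 siRNA, 7.45, 6.86 and 6.86 in the non-silencing line and 8.62, 8.69 and 8.43 in the QKI shRNA line. The same 12 arrays lay below the other 6. Group means of Cenpf stood in the order QKI shRNA line (8.58 ± 0.14, SD, n = 3), untreated (8.56 ± 0.11), non-silencing line (7.06 ± 0.34), non-silencing siRNA (6.51 ± 0.44), QKI siRNA (6.16 ± 0.50) and hnRNP A1 siRNA (5.92 ± 0.42), and of the neighbours in that order only the untreated cells and the non-silencing line differed past the test. The arrays of the 2 non-silencing groups did not overlap either, at 0.54 ± 0.27 (adjusted p = 0.309), and the other neighbours overlapped.
Cenpe (cluster 7199476) read 6.49, 6.25 and 6.80 in untreated cells, 4.12, 4.92 and 4.76 with non-silencing siRNA, 4.72, 4.41 and 4.61 with QKI siRNA, 4.39, 4.30 and 4.46 with hnRNP A1 siRNA, 6.23, 4.81 and 4.74 in the non-silencing line and 6.61, 6.86 and 5.70 in the QKI shRNA line. Its siRNA arrays were all below the untreated ones, and the stable lines overlapped.

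Nuf2, the other kinetochore gene with a value, which encodes a subunit of the complex that binds microtubules, followed the majority of members. Its log2 level was 7.60, 7.49 and 8.52 in untreated cells, 5.24, 5.80 and 5.85 with non-silencing siRNA, and 7.80, 7.02 and 5.48 with QKI siRNA. Each member was also set against the mean of the 28 members other than Mki67, Cenpf and Cenpe, itself left out. Over the 18 arrays Mki67 correlated with that mean at r = 0.48, Cenpf at 0.64 and Cenpe at 0.68, and Ube2c at 0.50. The remaining members stood between 0.77 for Cdc25b and 0.99 for Bub1 and Cdca2. Among Mki67, Cenpf and Cenpe themselves r was 0.93 to 0.94, and 0.51 to 0.64 with each group's mean removed. The 3 genes were singled out after their values were seen, so no test is given for them as a set.

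**Figure D3:**
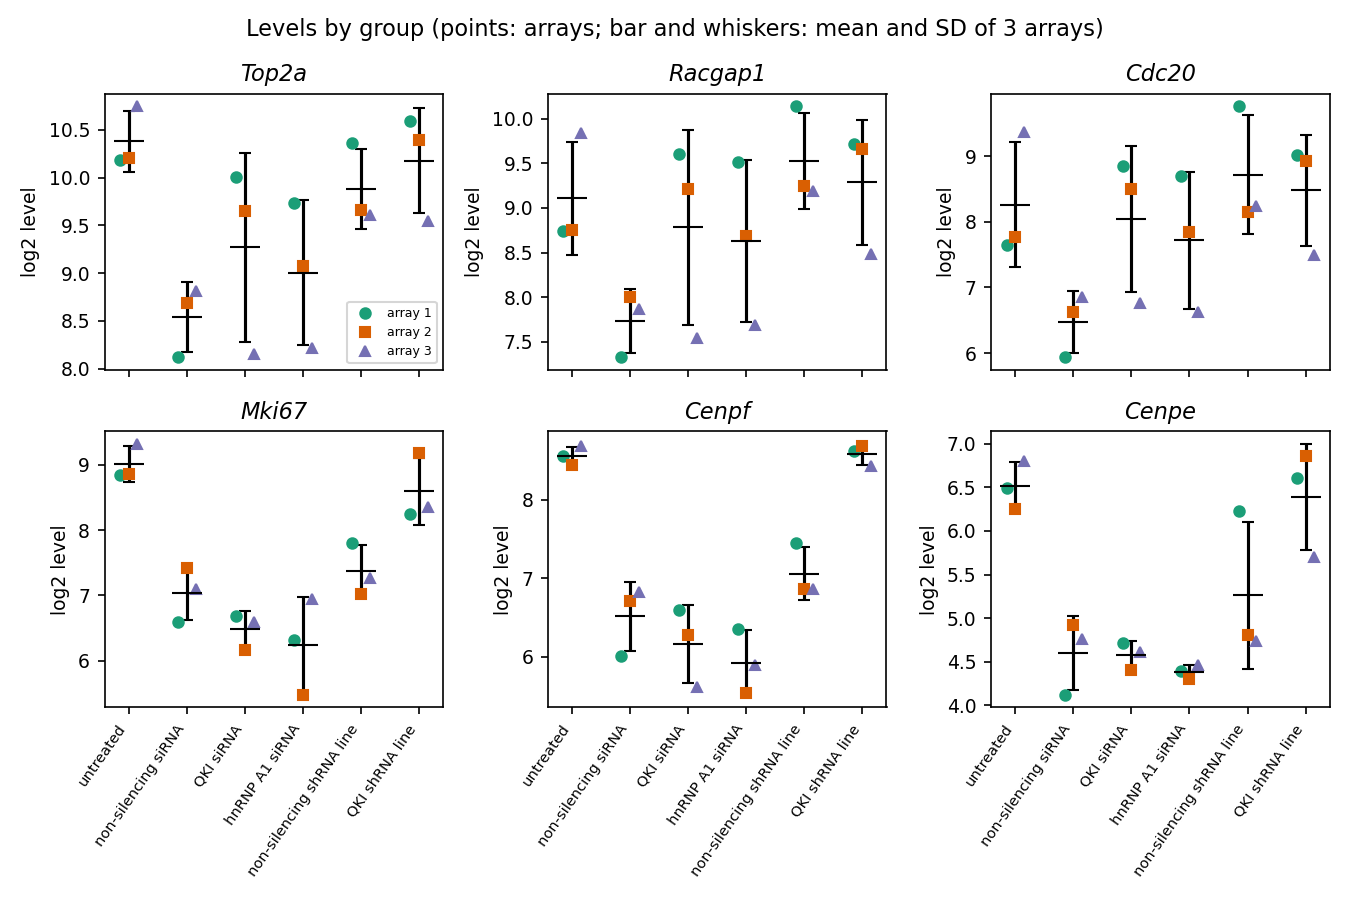
Log2 levels on each array by group for Top2a, Racgap1 and Cdc20, which follow most members, and for Mki67, Cenpf and Cenpe. Points are arrays, numbered by shape, and bars with whiskers are the mean and SD of 3 arrays. On array 3 of both siRNA knockdowns the upper 3 genes lie near the level of non-silencing siRNA, and the lower 3 are low on all arrays of both groups.

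Against untreated cells, non-silencing siRNA alone went with lower levels of every measured member. All 31 differences were below 0, with a median of -1.64 log2 units against 0.08 over all clusters, and on 29 members all 3 non-silencing siRNA arrays lay below all untreated arrays, against 6.97% of all clusters with arrays below and 15.7% with arrays above. Cenpf and Mki67 passed the test, against a background of 0.0476% of clusters called lower and 0.0317% called higher. Cenpf fell by 2.05 ± 0.27 (4.15-fold, adjusted p = 0.00693) and Mki67 by 1.97 ± 0.34 (3.91-fold, adjusted p = 0.0478), in 3 of 3 arrays each. Unadjusted, 28 members had p under 0.05, as did 1953 of all 18901 clusters. The adjusted p of the members that were not called ran from 0.0597 for Cenpe upwards. Of 513 probe sets of the members, 503 (98.1%) were lower, against 45.3% of all 204586 probe sets. The Mki67 call was lost without any 1 of the 6 compared arrays (adjusted p up to 0.172 over all alternatives) and that of Cenpf without untreated array 1 (up to 0.0952). Fitted on the 6 compared arrays alone, 10 members were called lower, with 120 clusters called in all against 15 in the fit of 18 arrays. Without array 3 of the QKI and hnRNP A1 siRNA groups 149 clusters were called and 11 members were lower, Ccna2, Top2a, Ect2, Tpx2, Cdc25b, Cenpe, Kif20a, Pbk and Plk1 besides those 2.

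QKI siRNA against non-silencing siRNA asks what a siRNA against QKI adds to transfection itself. No member was called, nor was any cluster (0% of all in either direction), while 28 of 31 differences were above 0 with a median of 0.90, against 0.04 over all clusters. Cdc25b, the member of largest statistic, read 7.33, 7.03 and 6.49 with QKI siRNA and 5.87, 6.29 and 6.05 without a target, and was the only member whose arrays did not overlap, against 7.41% of all clusters that lay above and 6.63% below. Its difference was 0.88 ± 0.27 (adjusted p = 0.376). Ect2 differed by 1.18 ± 0.45 (adjusted p = 0.463) and Cdc20 by 1.57 ± 0.66 (adjusted p = 0.509). Unadjusted, 9 members had p under 0.05, as did 1721 of all 18901 clusters. Mki67, Cenpf and Cenpe were the 3 members with differences below 0, at -0.56, -0.35 and -0.02. The median was 0.45 without QKI siRNA array 1 and 1.41 without QKI siRNA array 3. Without array 3 of both knockdowns it was also 1.41, and Ccna2 (2.09), Ect2 (1.72) and Cdca2 (1.78) were called higher, among 183 clusters called.

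hnRNP A1 siRNA was compared with the same control arrays as QKI siRNA. The median difference from non-silencing siRNA was 0.64, against 0.00 over all clusters, 28 differences were above 0, and no member was called (0.00529% of clusters were called higher and 0% lower). The median was 0.24 without hnRNP A1 siRNA array 1 and 1.03 without array 3. Unadjusted, 3 members had p under 0.05, as did 1331 of all 18901 clusters. Cdc25b differed by 0.92 ± 0.27 (adjusted p = 0.471), Mki67 by -0.79 ± 0.34 (adjusted p = 0.647) and Cenpf by -0.59 ± 0.27 (adjusted p = 0.692). Cdk1, Cdc25b and Aurkb were the 3 members on which all hnRNP A1 siRNA arrays lay above all non-silencing siRNA arrays, against 8.69% of clusters above and 5.12% below. Between QKI and hnRNP A1 siRNA no member was called (0% of clusters in either direction) and all overlapped (2.68% of clusters lay above and 3.22% below), and 1, Ube2c, had an unadjusted p under 0.05 (0.53 ± 0.24, adjusted p = 1). Of all 18901 clusters, 603 had an unadjusted p under 0.05 there. After Ube2c came Cdca3 at 0.30 ± 0.25 and Ckap2 at 0.23 ± 0.24. The median of 0.26 turned to -0.11 without QKI siRNA array 1 and to -0.13 without hnRNP A1 siRNA array 3.

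The stable lines compare the line labelled QKI shRNA, in which Qki was not called lower, with a line without a target. Cenpf was higher in the QKI shRNA line by 1.52 ± 0.27 (2.88-fold, adjusted p = 0.00148) and Mki67 by 1.22 ± 0.34 (2.34-fold, adjusted p = 0.0298). Both were higher on 3 of 3 arrays, and they were the only 2 members whose arrays did not overlap. Against untreated cells neither was called in the QKI shRNA line (adjusted p = 0.994 and 0.794), while both were called lower in the non-silencing line. The background between the 2 lines was large, with 3.38% of clusters called higher, 6.9% called lower, 9.14% with all arrays above and 13.5% with all below. The other 29 members were not called, 21 of 31 differences were above 0, and the median was 0.15 against 0.01 over all clusters. With 1 array left out that median ran from -0.02 without QKI shRNA array 1 to 0.50 without QKI shRNA array 3, with 0.46, 0.08 and 0.00 without array 1, 2 or 3 of the non-silencing line and 0.04 without QKI shRNA array 2. Next to the threshold was Cenpe, at 1.13 ± 0.35 (adjusted p = 0.0517). Kif20a differed by 1.03, Hmmr by -0.65 and Cdk1 by -0.52, none past the test. Cenpf was called under each of 25 alternatives, Mki67 under 19. The Mki67 call was lost without array 2 or 3 of the non-silencing line or array 2 of the QKI shRNA line (adjusted p up to 0.162). Beside these genes, the mean of the 8 oligodendrocyte markers was 4.85, 4.78 and 5.05 in the QKI shRNA line and 5.71, 6.24 and 6.27 in its control, with 3 of the 8 called lower, and 2 of 6 astrocyte markers were called higher and 1 lower. Their part in the result was not tested.

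The siRNA comparison and the shRNA comparison, each against its own control, were also tested against each other. Qki itself differed between them by -1.19 ± 0.32 (adjusted p = 0.0432), with -1.44 for the siRNA and -0.25 for the shRNA. For Cenpf the siRNA difference minus the shRNA difference was -1.88 ± 0.38 (adjusted p = 0.0102) and for Mki67 -1.78 ± 0.48 (adjusted p = 0.0461). The Cenpf call held under 22 of 24 alternatives (adjusted p from 0.00152 to 0.0861) and the Mki67 call under 9 of 24 (from 0.0197 to 0.13). The siRNA part was -0.35 for Cenpf and -0.56 for Mki67, and the shRNA part 1.52 and 1.22. Of the clusters, 1.29% were called in this direction and 3.42% in the other. Cenpe differed by -1.15 ± 0.49 (adjusted p = 0.251), and 26 of the 31 differences were above 0.

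**Figure D4:**
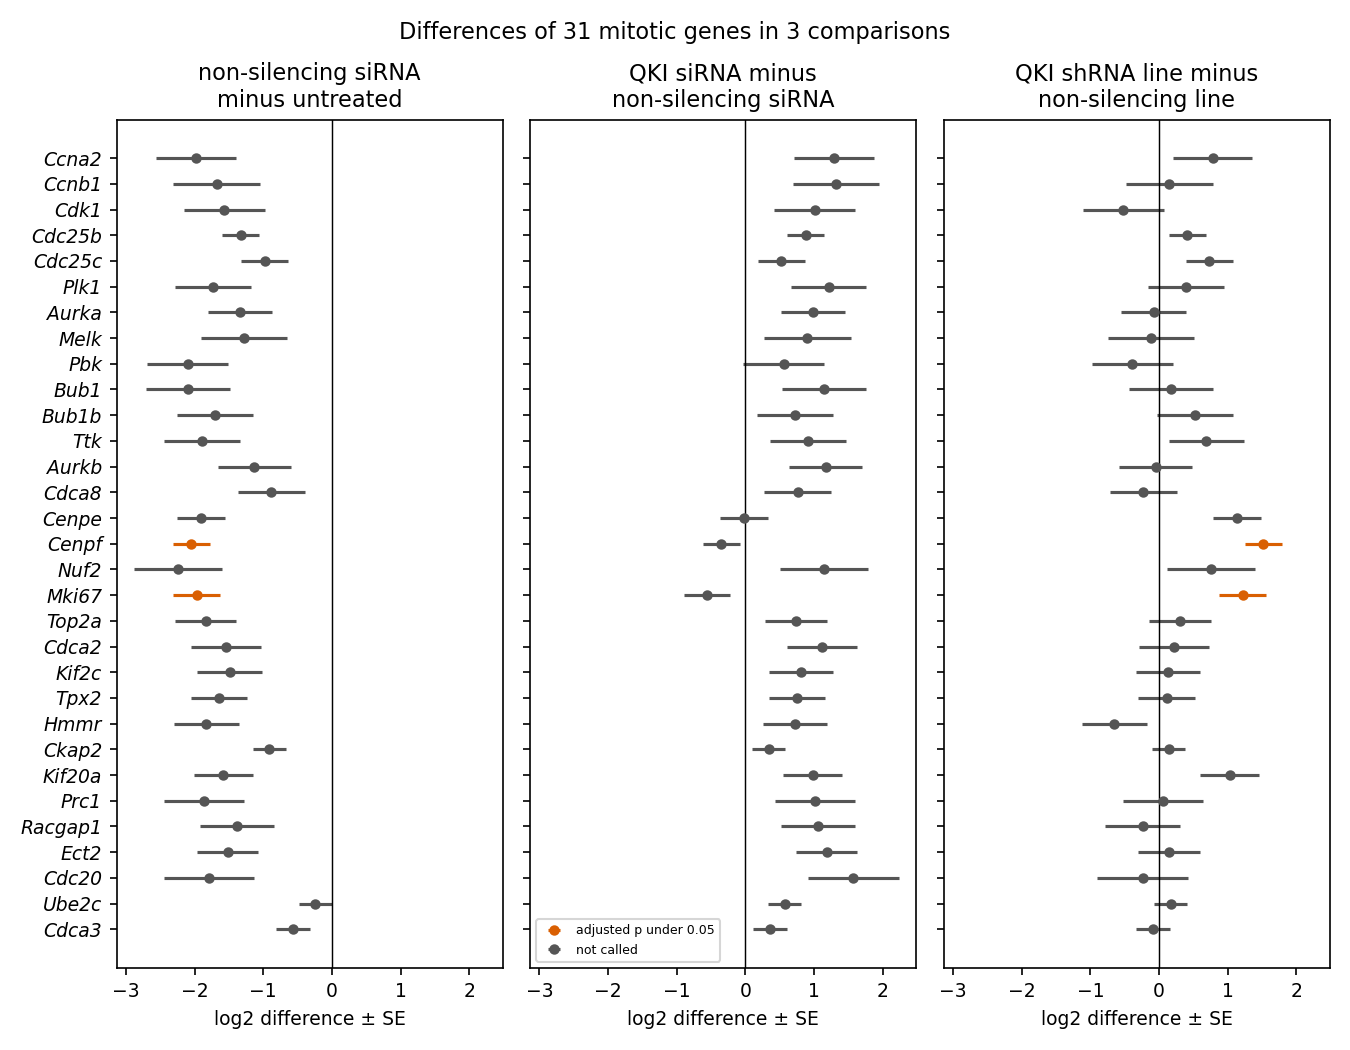
Log2 difference with limma's standard error for the 31 members in 3 comparisons, in the order of their roles. All points lie below 0 for non-silencing siRNA against untreated cells, 28 of 31 lie above 0 for QKI siRNA against non-silencing siRNA, and Cenpf and Mki67 are called in the first and the third.

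The non-silencing line was also set against untreated cells, which differ from it in the shRNA and in the making of a line. Mki67 fell by 1.64 ± 0.34 (adjusted p = 0.0182) and Cenpf by 1.51 ± 0.27 (adjusted p = 0.00802), against 0.783% of clusters called lower and 2.48% called higher. Cenpe differed by -1.25 ± 0.35 (adjusted p = 0.0646), and with Cdc25b (-0.70) these were the 4 members with all arrays below, against 5.87% of clusters below and 14.8% above. The median over members was -0.18, against 0.06 over all clusters, and became 0.10 without untreated array 3. The Mki67 call was lost without array 1 or 2 of the untreated cells or array 2 or 3 of the line. Between the QKI shRNA line and untreated cells no member was called (0.788% of clusters were called higher and 1.25% lower). None had an unadjusted p under 0.05, while 2171 of all 18901 clusters had. All members overlapped (9.81% of clusters lay above and 6.03% below), and the median was 0.04. Hmmr differed by -0.98 ± 0.47 (adjusted p = 0.443), Mki67 by -0.42 ± 0.34 and Cdc25b by -0.29 ± 0.27.

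Both knockdown siRNAs were also set against untreated cells, the same 3 arrays as above. With QKI siRNA Mki67 fell by 2.53 ± 0.34 (5.76-fold, adjusted p = 0.00549), Cenpf by 2.40 ± 0.27 (5.29-fold, adjusted p = 0.00137) and Cenpe by 1.93 ± 0.35 (3.82-fold, adjusted p = 0.0242), against 0.265% of clusters called lower and 0.196% called higher. With hnRNP A1 siRNA they fell by 2.76 ± 0.34 (6.77-fold, adjusted p = 0.00272), 2.64 ± 0.27 (6.24-fold, adjusted p = 0.000386) and 2.13 ± 0.35 (4.38-fold, adjusted p = 0.0154), against 0.0952% of clusters called lower and 0.201% called higher. No other member was called in either comparison. The medians were -0.57 and -0.80, and all arrays lay below the untreated ones for 6 and 13 members, against 5.59% and 4.41% of clusters (15% and 13.5% lay above). The first median was -0.97 and -0.17 without array 1 or 3 of QKI siRNA and -0.33 without untreated array 3, and the second -1.18 and -0.44 without array 1 or 3 of hnRNP A1 siRNA and -0.50 without untreated array 3. Of the 8 oligodendrocyte markers, 1 was called lower in each comparison, with medians of -0.86 and -0.49 and all arrays below for 5 and 1 of them. In each, 1 of 6 progenitor markers was called lower, and 1 of 6 astrocyte markers was with QKI siRNA. Their part in the result was not tested. The Cenpe call was lost without array 1 or 2 of the untreated cells, array 2 or 3 of QKI siRNA, or array 1 or 2 of hnRNP A1 siRNA (adjusted p up to 0.126 with QKI and 0.0954 with hnRNP A1 siRNA), while Cenpf and Mki67 were called under each of the 24 alternatives in both comparisons.

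The non-silencing line also lay above non-silencing siRNA, the other control, in all 31 members, with a median of 1.36 against -0.04 over all clusters. All arrays lay above for 26 members (14.5% of clusters, with 11.2% below). Of the members 24 had an unadjusted p under 0.05, as did 3337 of all 18901 clusters. No member was called (3.53% of clusters were called higher and 1.19% lower). Pbk differed by 2.02 ± 0.59 (adjusted p = 0.0607), Cdc20 by 2.25 ± 0.66 (adjusted p = 0.0641) and Tpx2 by 1.37 ± 0.41 (adjusted p = 0.0672). Without array 3 of both knockdown siRNAs, which are not in this comparison but enter the pooled spread, 15 members were called higher, and 1232 clusters were called against 891 with all arrays. Over all 6 groups, limma's F test called 6 members, Cenpf (adjusted p = 3.05e-05), Mki67 (0.000352), Cenpe (0.00151), Ckap2 (0.0326), Cdc25b (0.0375) and Kif20a (0.0496), against 9.92% of all clusters.

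Mki67, Cenpf and Cenpe were low across the whole gene and not at single exons. All 17 probe sets of Mki67 and all 24 of Cenpf were below untreated cells in each of the 3 siRNA groups and in the non-silencing line, and all of them were above the non-silencing line in the QKI shRNA line. Of the 48 probe sets of Cenpe, 48, 47 and 48 were below untreated cells with non-silencing, QKI and hnRNP A1 siRNA. In the non-silencing line 45 were below untreated cells, and 47 lay above that line in the QKI shRNA line. Of all probe sets, 45.3%, 45.3% and 46.1% were below untreated cells in the siRNA groups and 47.5% in the non-silencing line. Other members, such as Top2a, Bub1, Ttk, Nuf2 and Pbk, also had every probe set below untreated cells in each of the 3 siRNA groups.
A feature of the arrays moved with some of the same groups, and less with non-silencing siRNA. Genes with a mean level of at least 6 were sorted by their number of probe sets, a rough stand-in for the number of exons and a measure chosen after the data were seen. For the 81 genes with more than 40 probe sets, the median difference from untreated cells was -0.14 with non-silencing siRNA, -0.39 with QKI siRNA, -0.36 with hnRNP A1 siRNA, -0.29 in the non-silencing line and -0.08 in the QKI shRNA line. For the 1717 genes with at most 10 probe sets it was -0.05, 0.05, 0.15, 0.30 and -0.03. The QKI shRNA line against its control gave 0.23 for the first set and -0.33 for the second.
On single arrays the first set minus the second, each gene taken from its mean over the arrays, was -0.28, -0.39 and -0.32 in the non-silencing line and 0.06, 0.11 and 0.38 in the QKI shRNA line. It was 0.35, 0.40 and 0.06 in untreated cells, 0.11, 0.23 and 0.24 with non-silencing siRNA, -0.22, -0.21 and 0.00 with QKI siRNA and -0.29, -0.36 and 0.06 with hnRNP A1 siRNA. Cenpe has 48 probe sets, the most of any member, Cenpf has 24 and Mki67 has 17. Top2a has 32, and Bub1 and Bub1b have 26 each. The part of this trend in the results for Mki67, Cenpf and Cenpe was not tested.

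**Figure D5:**
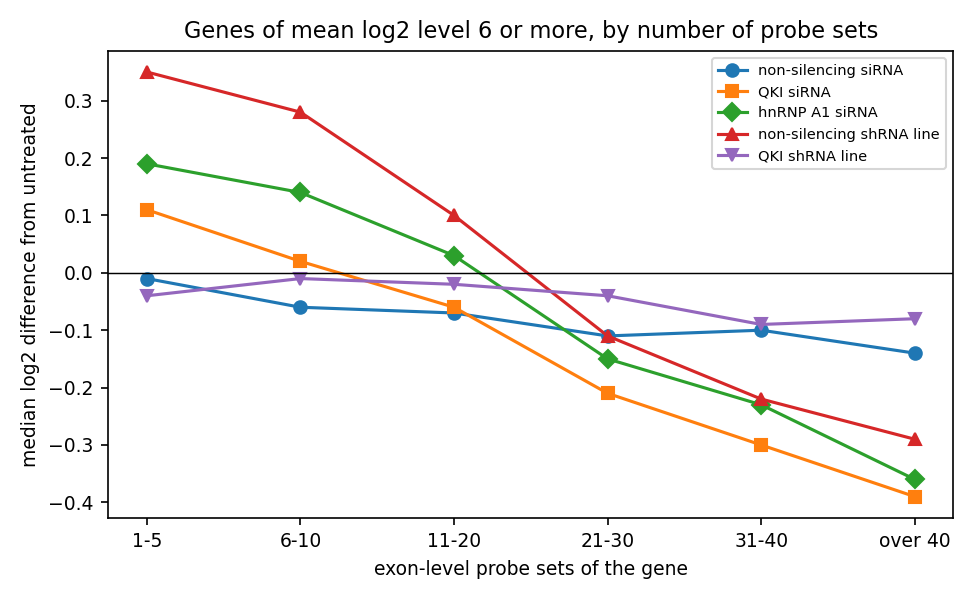
Median log2 difference from untreated cells, which all 5 lines share as control, for genes of mean log2 level 6 or more, by number of probe sets. In the QKI siRNA, hnRNP A1 siRNA and non-silencing shRNA groups the median passes from above 0 at 1 to 5 probe sets to between -0.29 and -0.39 over 40, and in the QKI shRNA line it stays between -0.09 and -0.01.

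Genes outside the 41 with the most similar course over the 18 arrays were Tacc3 (r = 0.991 with the mean of the members), Fancd2 (0.983), Kif18a (0.982), Ncapg (0.977), Spc25 (0.977), Plk4 (0.975), Ckap2l (0.975), Arhgap11a (0.971), Cenpn (0.971) and Ezh2 (0.968). Of these 10, 6 stood in a list of other mitotic genes. For the mean of Mki67, Cenpf and Cenpe, by the same rule applied after their values were seen, they were Smc3 (0.922), Odf2 (0.907), Brca2 (0.895), Cit (0.895), Ccdc88a (0.886), Cdk5rap2 (0.885), Myh9 (0.879), Gabpa (0.876), Rif1 (0.875) and C18h18orf54 (0.873). The median number of probe sets was 17 for the first 10 and 33.5 for the second.

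The wider cell cycle showed where the members stood in it. Of 45 other mitotic genes with a value, out of 60, all 45 were lower with non-silencing siRNA than in untreated cells, with a median of -1.41. None was called, though 39 had an unadjusted p under 0.05, beside 1953 of all 18901 clusters. Against non-silencing siRNA 8 of the 45 rose in the non-silencing line, where 3.53% of all clusters were called higher, led by Knstrn (2.29 ± 0.50, adjusted p = 0.0170), a kinetochore protein, Cdkn3 (2.27 ± 0.40, adjusted p = 0.00539), a Cdk phosphatase, and Pttg1 (2.21 ± 0.51, adjusted p = 0.0214), the securin that holds separase back. Cit, the citron kinase of the midbody, rose by 1.28 ± 0.24 in the QKI shRNA line (adjusted p = 0.00256) and fell by 0.94 ± 0.24 in the non-silencing line against untreated cells (adjusted p = 0.0461), in the same directions as Cenpf and Mki67.
Of 28 S phase genes out of 40, all 28 were lower with non-silencing siRNA than in untreated cells, with a median of -0.66 and none called. Of the 28, 5 had an unadjusted p under 0.05, beside the same 1953 of 18901 clusters. Rfc1, the large subunit of the clamp loader, rose by 1.17 ± 0.21 in the QKI shRNA line (adjusted p = 0.00154) and fell by 1.04 ± 0.21 with QKI siRNA against untreated cells (adjusted p = 0.0371). Among 10 measured regulators of mitotic transcription, all 10 were lower with non-silencing siRNA than in untreated cells, with a median of -0.44 and none called. Foxm1, the transcription factor that acts on these genes in G2, differed by -1.34. The 15 cell cycle arrest genes had no called member there and a median of 0.14. In the QKI shRNA line against its control, where 3.38% of all clusters were called higher and 6.9% lower, 1 of them rose, Gadd45g (1.92 ± 0.23, adjusted p = 7.42e-05), and 3 fell, Gadd45a (by 1.26), Ccng1 (by 1.14) and Cdkn2a (by 0.77).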

How the data were processed

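RNA of 18 cultures was measured on rat exon arrays, and each array is present at the gene and at the exon level (36 listed samples). The values the authors deposited are on the log2 scale. Of tools, the submitters' processing notes name RMA and Partek, without versions or roles. Per the labels' protocols, RNA was taken with Trizol and RNeasy and labelled after removal of ribosomal RNA. The sources used here give neither genome build nor annotation. Arrays have no read depth, so their number limits the precision.

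Symbols came from the platform annotation, with 30 clusters and 22876 probe sets updated through RefSeq (GRCr8, names and start windows only). Where clusters shared a symbol, that of the highest mean was taken. Group means were estimated from the 18 arrays together in limma 3.58.1 in R 4.3.3 (12 residual and 3.57 prior degrees of freedom), two-sided, Benjamini-Hochberg adjusted over 18901 clusters. Called means an adjusted p below 0.05. ± is the moderated standard error unless SD is named. In a simulation of non-silencing siRNA against untreated cells over 18901 clusters, 97.0% of 4-fold, 52.2% of 2-fold and 16.7% of 1.5-fold changes were recovered, with 4 false calls. The changes were put into random clusters that were not dim, with noise independent between clusters. The members moved together, so these rates do not carry over to them. In the data Cenpf (4.15-fold) was called there, while Nuf2 (4.72-fold), Pbk (4.29-fold) and Bub1 (4.27-fold) were not.

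Named genes are called members, or the 3 of largest statistic where none was called, the member of highest mean signal in each role on every array, up to 3 called genes of other lists and the 10 most similar genes. The members and lists were chosen with earlier results of these data known. Alternatives were other normalizations, a filter on dim clusters, probe set medians over 13150 genes, the replicate number as a block and leaving out arrays.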

Additional observations from a re-analysis of the deposited data

Results flagged for a closer look

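In limma's test of the siRNA comparison against the shRNA comparison, each with its own non-silencing control, 890 of 18901 clusters passed. Of the members these were Cenpf, at -1.88 log2 units, and Mki67, at -1.78. Among the other mitotic genes they were Cdkn3 at 2.04 and Cks2 at 1.99, among the S phase genes Rfc1 at -1.89, and among the arrest genes Ccng1 at 1.20 and Gadd45g at -1.65. Of the cell type markers, Olig1 differed by 1.87, Cnp by 1.89 and S100b by 2.39. Qki differed by -1.19, and it was not called lower in the line labelled QKI shRNA. On 3 of 3 arrays that line exceeded its control in Cenpf and Mki67, while their arrays overlapped between QKI siRNA and its control. Cdkn3 and Cks2 had siRNA differences of 1.70 and 1.17 and shRNA differences of -0.34 and -0.82.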

How the results depend on the processing

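In non-silencing siRNA against untreated cells 2 members were called, and 1 with median centring, 0 with probe set medians, 4 with quantile normalization, 4 with the replicate block, 10 with the compared arrays only, and 0 to 1 with any 1 array left out. In the QKI shRNA line against its control, 2 became 1 with median centring, with the compared arrays only and with probe set medians, and 1 to 4 with an array left out. For the non-silencing line against untreated cells, 2 became 1 with median centring and with probe set medians, and 1 to 3 with an array left out. Of the 2 members whose siRNA and shRNA differences differed, 0 were called with median centring, 1 with the replicate block and 1 to 3 with an array left out. The F test called 6 members, and 3 with median centring, 10 with the block and 3 to 14 with an array left out, 14 without QKI siRNA array 3 and 11 without QKI shRNA array 3. In the non-silencing line against non-silencing siRNA 0 became 4 with the block. QKI siRNA and hnRNP A1 siRNA against untreated cells kept 3 called members under each alternative but leaving out an array, which gave 2 to 3.

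Without array 3 of both knockdown siRNAs, an alternative chosen after seeing the data, the counts were 11 for non-silencing siRNA against untreated cells, 15 for the non-silencing line against non-silencing siRNA, 3 for QKI siRNA against its control and 19 for the F test. Over the 14 calls of single members, 288 of 342 recomputed values stayed past the threshold and 54 did not, with no change of sign. Many of these fits left out an array of a group outside the comparison. With a compared array left out, a call between 2 groups held in 0 of 6 fits for Mki67 in non-silencing siRNA against untreated cells. At the other end, Cenpf between the stable lines held in 6 of 6.

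With an array left out, the median difference over the members ran from -1.81 to -1.33 for non-silencing siRNA and from -0.45 to 0.10 for the non-silencing line against untreated cells, from 0.45 to 1.41 and from 0.24 to 1.03 for QKI and hnRNP A1 siRNA against non-silencing siRNA, from -0.97 to -0.17 and from -1.18 to -0.44 for QKI and hnRNP A1 siRNA against untreated cells, from -0.02 to 0.50 between the stable lines, from -0.13 to 0.75 between both knockdown siRNAs and from -0.16 to 0.38 for the QKI shRNA line against untreated cells. The last turned from 0.04 to -0.16 and -0.06 without QKI shRNA array 1 or 2 and to -0.06 and -0.10 without untreated array 1 or 2. The cause of these changes was not tested.

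Taken over all groups, the replicate numbers showed no common pairing of the arrays. Deviations from the group means correlated between arrays of the same number at -0.36 to 0.56 for number 1, -0.32 to 0.37 for number 2 and -0.53 to 0.40 for number 3, so the block results above rest on numbers alone. These ranges do not exclude a pairing between particular groups. The mean of the members fell in the same order with QKI siRNA (7.38, 6.93 and 5.71) and hnRNP A1 siRNA (7.09, 6.44 and 5.75). A pairing of these 2 groups was not tested.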
